A study of Mus musculus with 6 samples.

Results

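Pan-endothelial identity genes are the genes by which a cell of the inner lining of any blood vessel is recognised, among them Pecam1, Cdh5, Cldn5, Kdr, Tek, Vwf, Erg and Sox18. The set was fixed by name as 32 genes of the 35275 in the table, and all 32 were found, each once. They were measured in total RNA of whole mouse aorta, in 3 wild-type libraries and 3 libraries of the genotype labelled EC-Jag1KO, a loss of the Notch ligand Jagged1 in mature endothelial cells. Not given in the sources used here are the recombinase and promoter behind the loss, and the strain, age and treatment of the mice. The series asks what the loss does to the vessel and its smooth muscle. For these genes the question is how much endothelial RNA each library held and which members did not follow the rest.

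Endothelial cells line the lumen as a single layer, sealed by VE-cadherin and claudin-5 and bound to each other by PECAM-1. They sense VEGF and angiopoietins through dedicated receptor tyrosine kinases, and they hold von Willebrand factor in storage granules. ETS factors such as ERG and FLI1, together with SOX7, SOX18 and TAL1, act on many of these genes. In whole aorta the layer is a thin part of a wall made mostly of smooth muscle. A lower level of all members can therefore mean fewer endothelial cells or less RNA per cell, which cannot be told apart here.

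The libraries held 19889910 to 25914325 reads in genes, and single members had 12 to 20376 reads per library. The values are FPKM, fragments divided by gene length and by the library's assigned fragments, so levels can be compared between genes. Smooth muscle dominated, with the actin gene Acta2 at 7383 ± 250 FPKM in wild-type against 6777 ± 620 FPKM in EC-Jag1KO tissue (SD, n = 3 each). The targeted gene Jag1 stood at 9.86, 10.6 and 16.9 FPKM in wild-type and at 13.5, 9.42 and 19.6 FPKM in EC-Jag1KO libraries, in replicate order. Its log2 fold change was 0.16 (95% interval -0.50 to 0.81), and without EC-Jag1KO replicate 3 it was -0.091. Jag1 is also made by smooth muscle, so its level over the whole gene does not check the endothelial deletion. The RNA Xist, made from the inactive X chromosome of female cells, stood at 26.9 FPKM in wild-type replicate 3 and 40.7 FPKM in EC-Jag1KO replicate 3, against at most 0.0738 FPKM in the other 4 libraries. Whether each library is a separate animal is not stated, so p-values reflect only how far these samples vary, which may be technical.

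Start-site windows are shown for 3 members on which the results turn: Cd34, whose levels separated the genotypes, and Flt1 and Kdr, receptors of the same ligand whose levels varied differently. Each window runs from 250 bases before to 50 bases after the RefSeq start site in GRCm38.p6, 5′ to 3′ on the gene's strand. Capitals mark GGAAGT, a core of ETS factor motifs, on either strand, and the reverse complement is written ACTTCC. The window of Cd34 lies on the plus strand at chr1:194938571-194938870 and holds no match. Those of Kdr, at chr5:75978406-75978705, and Flt1, at chr5:147725962-147726261, lie on the minus strand with 1 match each.
Cd34: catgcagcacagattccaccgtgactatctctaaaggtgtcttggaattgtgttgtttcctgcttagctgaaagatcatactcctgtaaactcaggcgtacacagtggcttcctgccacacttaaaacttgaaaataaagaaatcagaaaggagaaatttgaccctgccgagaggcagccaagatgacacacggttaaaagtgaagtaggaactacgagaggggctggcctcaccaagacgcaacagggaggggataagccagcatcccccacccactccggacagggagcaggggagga
Kdr: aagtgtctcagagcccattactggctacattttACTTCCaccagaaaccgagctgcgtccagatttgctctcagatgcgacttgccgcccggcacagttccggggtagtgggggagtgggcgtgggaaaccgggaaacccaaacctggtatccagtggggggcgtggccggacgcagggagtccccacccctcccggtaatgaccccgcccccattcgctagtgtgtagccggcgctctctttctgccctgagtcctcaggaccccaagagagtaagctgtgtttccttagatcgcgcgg
Flt1: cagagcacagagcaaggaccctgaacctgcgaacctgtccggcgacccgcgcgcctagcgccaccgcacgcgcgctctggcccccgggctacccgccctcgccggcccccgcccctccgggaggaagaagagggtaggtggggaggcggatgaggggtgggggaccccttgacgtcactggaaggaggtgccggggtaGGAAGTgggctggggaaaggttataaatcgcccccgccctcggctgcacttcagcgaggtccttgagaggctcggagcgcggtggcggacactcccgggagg

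RefSeq windows were at hand for 14 members, in 19 entries, since some genes have several starts. GGAAGT was found in 6 of the 19 (31.6%), those of Egfl7, Flt1, Kdr, Myct1 and Tie1, against 23.8% of 32851 windows of the same length. The longer ETS motif CCGGAAGT, which contains GGAAGT, was found in 0 of 19, against 3.89% of all. ATTGTT, read by SOX factors, was found in 3 (15.8% against 10.7%), in Emcn, Erg and Tek. AGATAA, read by GATA factors, was found in 4 (21.1% against 11.2%), in Erg, Myct1, Tal1 and Tek. CAGATG, an E-box of the TAL1 type, was found in 4 (21.1% against 17.2%) and GGGTGTGG, a KLF motif, in 2 (10.5% against 3.56%). Both strands were searched for each motif, and a match is a description of the letters in this window.

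Member levels spanned a wide range in whole aorta. Pecam1, the platelet endothelial adhesion molecule, was the most abundant, with a mean of 202 FPKM over the 6 libraries, and made up 25.9% to 29.5% of the summed FPKM of all members. Cd34 followed at 66.96 FPKM and Vwf at 55.1 FPKM. The least abundant was Aplnr, the apelin receptor gene, at 0.440 FPKM. It lay below the filter of a mean of 1 FPKM and was left out of the test, which 31 of the 32 members entered.

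**Figure D1:**
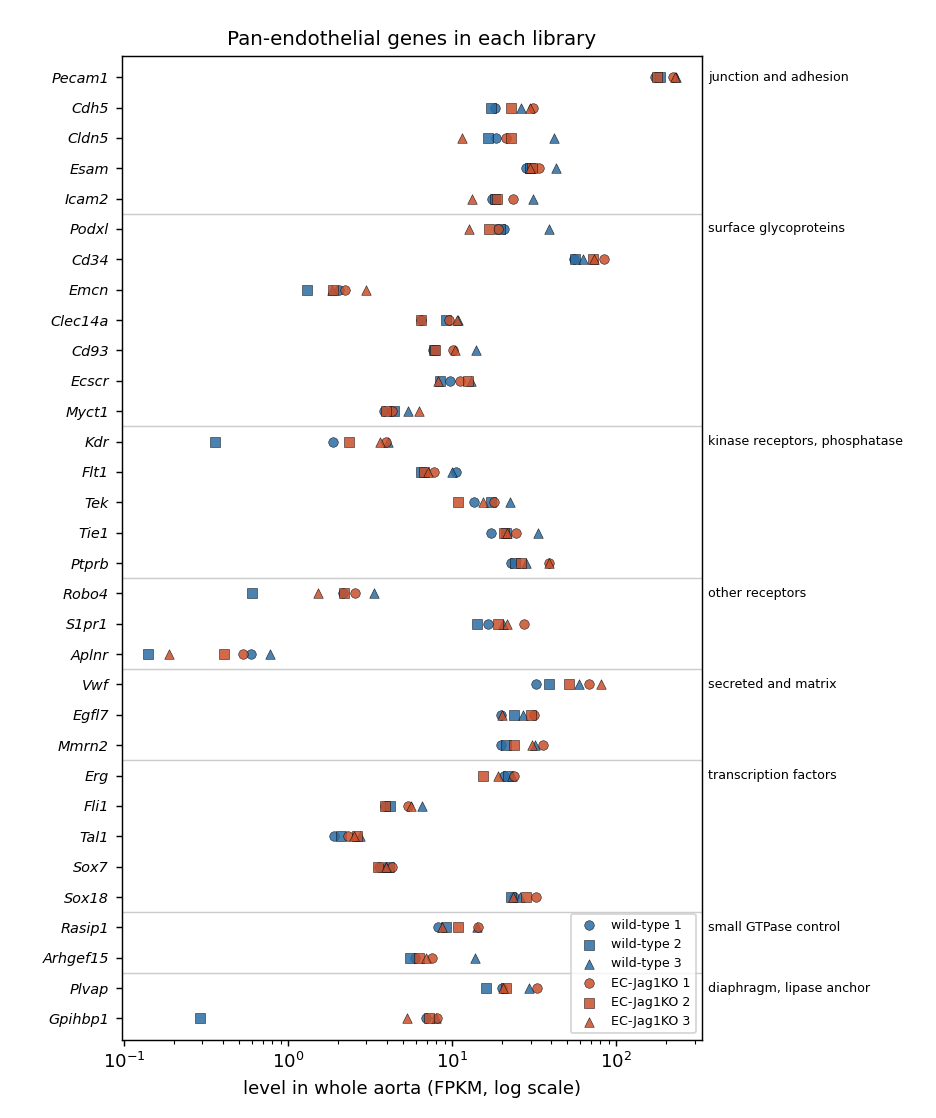
Level of each of the 32 genes in each library, in FPKM on a log scale, grouped by role, with blue for wild-type and orange for EC-Jag1KO and 1 marker shape per replicate number. Pecam1 lies near 202 FPKM at the top of the range, and the blue square of wild-type replicate 2 stands apart on the left for Kdr, Robo4 and Gpihbp1.

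As a group, the members differed more among the wild-type libraries than between the genotype means. The mean log2(FPKM + 1) over the 31 tested members was 3.69, 3.55 and 4.20 in wild-type replicates 1 to 3, against 4.09, 3.80 and 3.87 for EC-Jag1KO. The wild-type libraries thus included both the lowest and the highest level, and the EC-Jag1KO libraries lay between them. The group means were 3.81 ± 0.34 and 3.92 ± 0.15 (SD, n = 3 each), a difference of 0.10. Taken as the median over members in place of the mean, the levels were 4.14, 4.10 and 4.55 against 4.32, 4.03 and 3.77, and the difference was -0.22, in the opposite direction. With wild-type replicates 1, 2 and 3 left out in turn the difference in the mean was 0.042, -0.025 and 0.30, and with EC-Jag1KO replicates 1 and 2 left out it was 0.022 and 0.16. With 10 members left out as shared with platelets, other blood cells or their precursors, the difference over the remaining 21 was 0.11. Those that remain may include further genes that blood cells make.

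Wild-type replicate 3 was the highest wild-type library for 29 of the 32 members (90.6%), where it was so for 43.6% of all 12165 tested genes. EC-Jag1KO replicate 1 was the highest EC-Jag1KO library for 21 members (65.6%), against 26% of all tested genes. Over all 6 libraries, wild-type replicate 3 held the highest value of 16 members and EC-Jag1KO replicate 1 that of 11. The lowest value lay in wild-type replicate 1 for 12 members and in wild-type replicate 2 for 11. Levels of other cell types differed between libraries as well. The summed FPKM of 10 smooth muscle markers was 14568 to 15356 in wild-type and 12493 to 14474 in EC-Jag1KO libraries, narrowly without overlap. Of these markers 4 lay higher and 6 lower in EC-Jag1KO, and the groups of Acta2, the largest part of the sum, overlapped. Groups of single markers did not overlap for 1 higher and 4 lower, against 13.6% of all tested genes. The sum over 10 adipocyte markers was 869, 271 and 1788 FPKM in wild-type and 1379, 1075 and 739 FPKM in EC-Jag1KO libraries. Wild-type replicate 3 was the highest in both the adipocyte sum and the endothelial level. With the adipocyte level as a covariate, an alternative chosen after the data were seen, the median log2 fold change of the members was 0.018.

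A few members were far lower in wild-type replicate 2 than elsewhere. Gpihbp1, which carries lipoprotein lipase to the capillary lumen, stood at 0.289 FPKM there, on 12 reads, and at 5.28 to 8.07 FPKM in the other 5 libraries, at least 18.3-fold above it. Kdr, the main signalling receptor for VEGF-A, stood at 0.356 FPKM on 53 reads, against 1.88 to 4.05 FPKM. Robo4, an endothelial receptor of the roundabout family, stood at 0.605 FPKM on 60 reads, against 1.52 to 3.31 FPKM. In that library these 3 of 32 members (9.38%) lay at least 2-fold below every other library, as did 179 of all tested genes (1.47%). By the same measure 8 of 10 adipocyte markers, 9 of 14 genes of a capillary endothelial list and 4 of 7 lymphatic endothelial genes lay low there. So did 2 of 9 venous genes, 3 of 47 other endothelial genes and 0 of 18 arterial endothelial genes. Unlike the share of tested genes, these list counts include genes below the filter of a mean of 1 FPKM. Among those that lay low were Lep of the adipocyte markers and Prox1 and Reln of the lymphatic genes. The summed FPKM of the capillary list was 1235, 326 and 1564 in wild-type and 1630, 1329 and 776 in EC-Jag1KO libraries. Most of it was Fabp4, at 965, 206 and 1216 FPKM in wild-type and 1274, 1035 and 519 FPKM in EC-Jag1KO libraries. The sum of the arterial list was 405, 444 and 584 against 490, 438 and 320. Most of that was Cytl1, at 275, 302 and 407 FPKM against 342, 312 and 180 FPKM. Each sum therefore follows mainly 1 gene. Several capillary genes, among them Fabp4, Lpl and Cd36, are also made by adipocytes, and the part of any of these cell types in the 3 members was not tested. This property and the 3 members it names were noticed in the data.

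**Figure D2:**
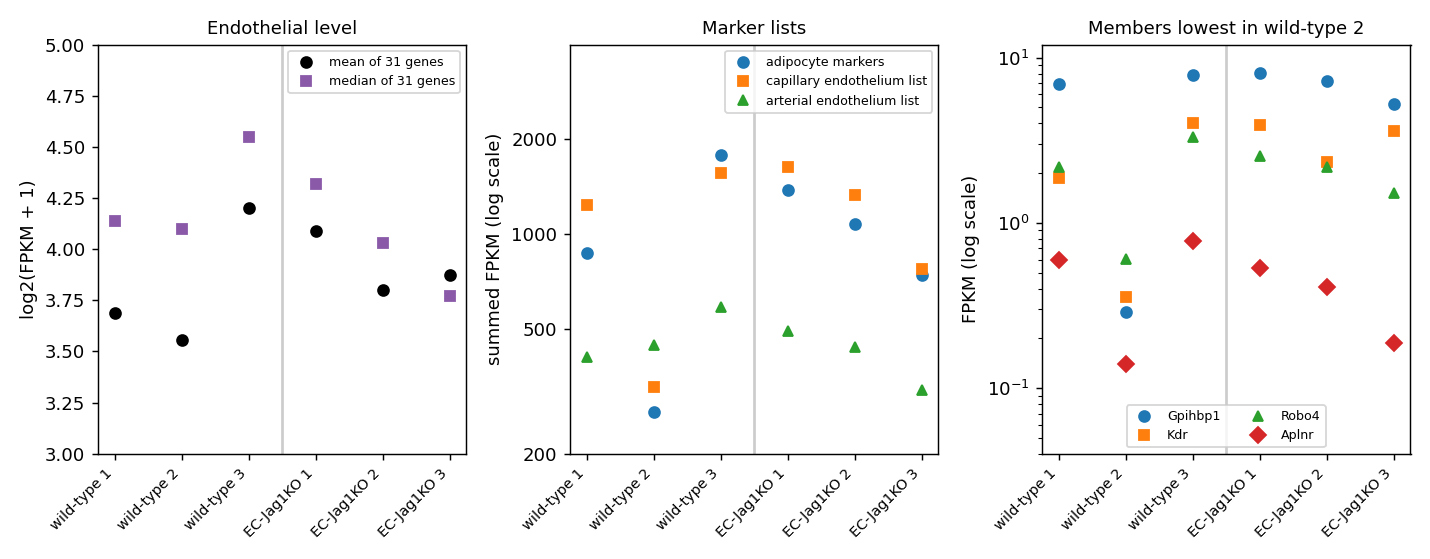
Left, mean and median log2(FPKM + 1) of the 31 tested members in each library. Middle, summed FPKM of the adipocyte, capillary and arterial lists on a log scale. Fabp4 makes up most of the capillary sum and Cytl1 most of the arterial sum. Right, FPKM of Gpihbp1, Kdr, Robo4 and Aplnr on a log scale. Wild-type replicate 2 has 271 FPKM of adipocyte markers and the lowest value of each of the 4 genes on the right, while the arterial sum of 444 FPKM there is within the range of the other libraries.

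Between genotypes, 0 of the 31 tested members passed limma's test across all genes at an adjusted p of 0.05, as did 0 of all 12165 genes (0%). The smallest adjusted p among members was 0.443, for Cd34. At an unadjusted p under 0.05 there were 3 members, Cd34, Ptprb and Vwf (9.68%), all higher in EC-Jag1KO, against 7.71% of all genes. The groups did not overlap for 2 members (6.45%), Cd34 and Podxl, against 13.6% of all genes. Both shares were near those of all genes or below them. Of the members 21 lay higher and 10 lower, with a median log2 fold change of 0.10 beside -0.00022 for all genes, and with wild-type replicates 1, 2 and 3 left out in turn the median was -0.0055, 0.033 and 0.24. With EC-Jag1KO replicate 1 left out it was -0.0095. For 28 members the 95% interval spanned 0, and for 26 it lay within -1 to 1. With library weights estimated from the data 10 members passed, all higher, as did 13.5% of all genes, in a fit that gave EC-Jag1KO replicate 1 a weight of 14.7 and the others 0.259 to 1.61.

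**Figure D3:**
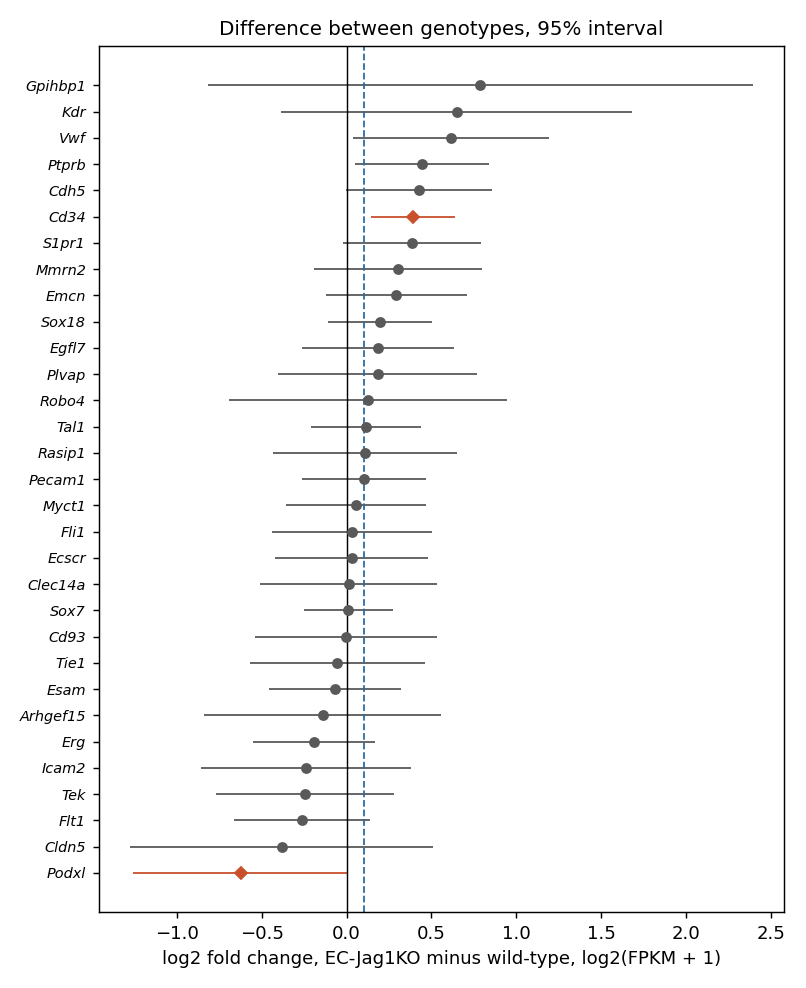
Log2 fold change of each tested member, EC-Jag1KO minus wild-type on the log2(FPKM + 1) scale, with its 95% interval. The solid line marks 0, the dashed line the median of 0.10, and orange diamonds mark Cd34 and Podxl, the members whose groups do not overlap. The intervals of 28 members span 0.

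Among junction and adhesion genes, 2 of 5 lay higher and 3 lower in EC-Jag1KO, with a median log2 fold change of -0.067. Pecam1 (chr11:106654217-106750628, minus strand, mm10) stood at 172, 184 and 230 FPKM in wild-type and 223, 178 and 229 FPKM in EC-Jag1KO libraries. The groups overlapped over nearly their whole range, and its log2 fold change was 0.10 (95% interval -0.26 to 0.47). Cdh5, the VE-cadherin gene (chr8:104101625-104144502, plus strand), had 18.3, 17.3 and 26.3 FPKM in wild-type and 30.9, 22.8 and 29.8 FPKM in EC-Jag1KO libraries. Only EC-Jag1KO replicate 2 lay within the wild-type range, and its log2 fold change was 0.43 (-0.0034 to 0.86; limma adjusted p = 0.646). Esam, an immunoglobulin-family molecule of endothelial tight junctions, had 28.2, 29.6 and 43.1 FPKM against 33.9, 30.7 and 29.98 FPKM.

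Cldn5, the main claudin of endothelial tight junctions, stood at 18.4, 16.5 and 41.7 FPKM in wild-type and 21.3, 22.7 and 11.4 FPKM in EC-Jag1KO libraries. Icam2, an adhesion molecule for leukocytes, had 17.4, 18.3 and 30.9 FPKM against 23.4, 18.7 and 13.2 FPKM. Both genes, chosen after their values were seen, were highest in wild-type replicate 3 and lowest in EC-Jag1KO replicate 3, the libraries with high Xist. Their log2 fold changes were -0.38 (-1.28 to 0.51) and -0.24 (-0.86 to 0.38). Without those 2 libraries they were 0.32 and 0.22.

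Among surface glycoproteins, 5 of 7 lay higher and 2 lower, with a median of 0.030, and the 2 most abundant, both sialomucins of one family, lay in opposite directions. Cd34 (chr1:194938821-194961292, plus strand) stood at 55.0, 56.0 and 62.2 FPKM in wild-type and 83.6, 71.8 and 73.1 FPKM in EC-Jag1KO libraries. Every EC-Jag1KO library lay above every wild-type library. Its log2 fold change was 0.39 (0.15 to 0.64), and the adjusted p of limma was 0.443. Fibroblasts and haematopoietic progenitors also make Cd34, and the summed FPKM of 10 fibroblast markers was 2839 to 3074 in wild-type and 3036 to 3467 in EC-Jag1KO libraries. Their part in the Cd34 level was not tested.

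Podxl, the podocalyxin gene (chr6:31519488-31563981, minus strand), had 20.7, 19.5 and 38.9 FPKM in wild-type and 18.98, 16.8 and 12.7 FPKM in EC-Jag1KO libraries. All EC-Jag1KO libraries lay below all wild-type libraries, although wild-type replicate 2 and EC-Jag1KO replicate 1 were close, and wild-type replicate 3 lay far above the rest. The log2 fold change was -0.62 (-1.26 to 0.011; limma adjusted p = 0.648). Podxl, too, was highest and lowest in the libraries with high Xist, and its log2 fold change was -0.31 without wild-type replicate 3 and -0.16 without both of them. The ratio of Cd34 to Podxl in FPKM was 2.66, 2.87 and 1.60 in wild-type and 4.41, 4.27 and 5.77 in EC-Jag1KO libraries, with means of 2.38 ± 0.68 and 4.82 ± 0.83 (SD, n = 3 each). The groups of this ratio did not overlap. The pair was chosen from its values, so the ratio is a description with no test.

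The groups of the other surface genes overlapped. Cd93 and Clec14a, C-type lectin-like receptors that bind the matrix protein multimerin-2, averaged 9.76 ± 3.62 against 9.44 ± 1.41 FPKM and 8.82 ± 2.21 against 8.91 ± 2.21 FPKM. The ratio of Cd93 to Clec14a was 1.10 ± 0.23 and 1.08 ± 0.12. Emcn, the endomucin gene of capillaries and veins, was low in aorta, at 1.74 ± 0.38 against 2.36 ± 0.57 FPKM. It had 2.04, 1.31 and 1.86 FPKM in wild-type and 2.22, 1.87 and 2.99 FPKM in EC-Jag1KO libraries. EC-Jag1KO replicates 1 and 3 lay above all wild-type libraries, with a log2 fold change of 0.29 (-0.12 to 0.71). Ecscr, an endothelial surface protein gene, had 10.4 ± 2.4 against 10.6 ± 2.2 FPKM, and Myct1, an endothelial target of ETS factors, had 4.55 ± 0.76 against 4.82 ± 1.23 FPKM. Like Podxl, Cldn5 and Icam2, Ecscr was highest in wild-type replicate 3 and lowest in EC-Jag1KO replicate 3. Its log2 fold change was 0.030, and 0.35 without both of those libraries.

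Among the receptor kinases and their phosphatase, 2 of 5 lay higher and 3 lower, with a median of -0.054. Flt1, the VEGF receptor that binds the ligand tightly and signals weakly, stood at 10.5, 6.48 and 9.95 FPKM in wild-type and 7.73, 6.72 and 7.09 FPKM in EC-Jag1KO libraries. The EC-Jag1KO values lay inside the wild-type range, and the log2 fold change was -0.26 (-0.66 to 0.14). Kdr stood at 1.88, 0.356 and 4.05 FPKM in wild-type and 3.93, 2.33 and 3.62 FPKM in EC-Jag1KO libraries. Wild-type replicate 2 stood alone at the low end, and the log2 fold change was 0.65 (-0.38 to 1.68). It was 0.15 without that library and 1.10 without wild-type replicate 3. Kdr was less abundant than Flt1 in each library, with a ratio of 0.179, 0.0549 and 0.406 in wild-type and 0.509, 0.347 and 0.510 in EC-Jag1KO libraries, which overlapped.

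Tie1, the orphan partner of the angiopoietin receptor, had 17.2, 21.2 and 33.2 FPKM in wild-type and 24.4, 20.8 and 21.4 FPKM in EC-Jag1KO libraries, with a log2 fold change of -0.054 (-0.57 to 0.46). Tek, the angiopoietin receptor itself, averaged 17.7 ± 4.5 against 14.7 ± 3.6 FPKM. The ratio of Tek to Tie1 was 0.755 ± 0.071 and 0.660 ± 0.119, also overlapping. Ptprb, the VE-PTP phosphatase that acts on TEK and VE-cadherin, had 22.8, 24.0 and 27.98 FPKM against 38.7, 26.4 and 39.1 FPKM. EC-Jag1KO replicates 1 and 3 lay above all wild-type libraries and EC-Jag1KO replicate 2 within them. The log2 fold change of Ptprb was 0.45 (0.051 to 0.84), and limma gave an adjusted p of 0.607.

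Of the remaining receptors, both that were tested lay higher, with a median of 0.26. S1pr1, the sphingosine-1-phosphate receptor that keeps the endothelial barrier, had 16.6, 14.1 and 20.5 FPKM in wild-type and 27.4, 18.96 and 21.6 FPKM in EC-Jag1KO libraries. EC-Jag1KO replicate 2 lay within the wild-type range and the other two above it, with a log2 fold change of 0.39 (-0.020 to 0.80; limma adjusted p = 0.655). Robo4 had 2.17, 0.605 and 3.31 FPKM against 2.56, 2.19 and 1.52 FPKM, with a log2 fold change of 0.13 (-0.69 to 0.95). Its EC-Jag1KO values lay inside the wild-type range. Aplnr, on 13 to 74 reads per library, had 0.595, 0.140 and 0.778 FPKM against 0.531, 0.408 and 0.188 FPKM, again with EC-Jag1KO inside the wild-type range.

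All 3 secreted and matrix products lay higher, with a median of 0.30 and 0 past the adjusted threshold. Vwf (chr6:125546774-125686679, plus strand) stood at 32.6, 39.1 and 59.5 FPKM in wild-type and 67.7, 51.3 and 80.4 FPKM in EC-Jag1KO libraries. Wild-type replicate 3 and EC-Jag1KO replicate 2 crossed, and the other EC-Jag1KO libraries lay above all wild-type libraries. The log2 fold change was 0.61 (0.039 to 1.19; limma adjusted p = 0.625). Megakaryocytes also make Vwf, and 6 platelet markers summed to 22.1 to 22.6 FPKM in wild-type and 18.3 to 27.1 FPKM in EC-Jag1KO libraries. Mmrn2, the multimerin-2 gene, had 19.7, 21.2 and 31.95 FPKM against 35.5, 23.8 and 30.5 FPKM, a log2 fold change of 0.30 (-0.19 to 0.80) with overlapping groups. Egfl7, a secreted matrix-bound protein and the host gene of miR-126, averaged 23.5 ± 3.6 against 27.1 ± 6.2 FPKM. Agpat2, at a mean of 73.1 FPKM, overlaps it on the opposite strand, and without a stated strand setting their reads cannot be told apart.

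Of 5 transcription factors, 4 lay higher and 1 lower, with a median of 0.030 and 0 past the adjusted threshold. Sox18 had 23.6, 22.7 and 25.8 FPKM in wild-type and 32.3, 28.1 and 23.4 FPKM in EC-Jag1KO libraries, with a log2 fold change of 0.20 (-0.11 to 0.50). Only EC-Jag1KO replicates 1 and 2 lay above the wild-type range. Erg had 20.6, 21.8 and 23.3 FPKM against 23.7, 15.4 and 18.99 FPKM, with a log2 fold change of -0.19 (-0.55 to 0.17). Here EC-Jag1KO held both the highest and the lowest library. Fli1 averaged 4.89 ± 1.47 against 4.95 ± 0.95 FPKM, Sox7 3.87 ± 0.29 against 3.91 ± 0.36 FPKM and Tal1, a haematopoietic and endothelial factor, 2.24 ± 0.43 against 2.48 ± 0.14 FPKM. The highest library of Sox7 was 1.21 times the lowest, against 3.65 times for Cldn5 and 27.9 times for Gpihbp1. The ratios of Sox18 to Sox7 (6.24 ± 0.62 and 7.15 ± 1.06) and of Fli1 to Erg (0.221 ± 0.053 and 0.258 ± 0.036) overlapped between genotypes.

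For regulators of small GTPases and the caveolar and lipase-binding proteins the groups overlapped. Rasip1, which is needed for vessel lumen formation, had 8.22, 9.10 and 14.1 FPKM in wild-type and 14.4, 10.8 and 8.67 FPKM in EC-Jag1KO libraries. Arhgef15, an exchange factor gene, had 5.90, 5.49 and 13.7 FPKM against 7.52, 6.27 and 6.96 FPKM. Each was highest of the wild-type libraries in replicate 3, and the log2 fold changes were 0.11 (-0.43 to 0.65) and -0.14 (-0.84 to 0.56), around a median of -0.016. Plvap, which forms the diaphragms of caveolae and fenestrae, had 20.1, 16.1 and 29.4 FPKM against 32.7, 21.4 and 20.3 FPKM, a log2 fold change of 0.18 (-0.40 to 0.77). Gtpbp3, at 8.42 FPKM, overlaps Plvap on the opposite strand. Gpihbp1 had 6.94, 0.289 and 7.91 FPKM against 8.07, 7.24 and 5.28 FPKM. Its log2 fold change of 0.79 (-0.82 to 2.39), the largest of all members, rested on wild-type replicate 2, and without that library it was -0.11.

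Since the endothelial level itself varied between libraries, each member was also set against the others. Its log2(FPKM + 1) minus the mean of the other 30 tested members, in the same library, gave its relative level. By this measure 6 of 31 members (19.4%) had groups that did not overlap, 4 higher and 2 lower in EC-Jag1KO, against 4.33% of all tested genes. Without wild-type replicate 3 the order of these shares turned, with 9 members (29%) against 45.2% of all genes. The subtracted level follows endothelial genes and not others, so the share of all genes is not a like-for-like background, and deviations of members sum to about 0 by construction. In limma 0 of the 31 members passed an adjusted p of 0.05 on this scale (0.51% of all genes did), and the smallest was 0.491, for Podxl. At an unadjusted p under 0.05 there were 3 (9.68%, against 3.86% of all genes), Podxl, Gpihbp1 and Kdr. On this scale the intervals had similar widths for all members, so they and the p-values do not measure each member's own spread. That of Gpihbp1 was 0.18 to 1.23 with a wild-type SD of 1.39, against -0.82 to 2.39 on absolute levels. That of Cdh5 was -0.22 to 0.89 with a wild-type SD of 0.037.

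Podxl had relative levels of 0.77, 0.83 and 1.16 in wild-type and 0.24, 0.37 and -0.10 in EC-Jag1KO libraries, a difference of -0.75 (95% interval -1.30 to -0.20). Flt1 had -0.17, -0.67 and -0.77 against -0.99, -0.88 and -0.89, a difference of -0.38 (-0.90 to 0.14). For both, every EC-Jag1KO library lay below every wild-type library. Vwf had 1.43, 1.83 and 1.78 against 2.08, 1.97 and 2.56, a difference of 0.53 (-0.055 to 1.11). Cdh5 had 0.60, 0.66 and 0.59 against 0.94, 0.80 and 1.11, with wild-type values that lay close together (SD 0.037) and a difference of 0.33 (-0.22 to 0.89). S1pr1 had 0.46, 0.38 and 0.23 against 0.77, 0.54 and 0.65, a difference of 0.29 (-0.26 to 0.84). For Cdh5, S1pr1, Vwf and also Flt1 the absolute levels had overlapped between genotypes, and the relative levels did not. Cd34 had 2.19, 2.35 and 1.84 against 2.39, 2.46 and 2.42, a difference of 0.30 (-0.29 to 0.88). Gpihbp1 and Kdr, with differences of 0.71 and 0.56, overlapped, and their values in wild-type replicate 2 lay at -3.29 and -3.22. Cd34 overlapped with a pseudocount of 0.1 and in voom on recovered reads, and Flt1 when the median of the other members was subtracted.

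**Figure D4:**
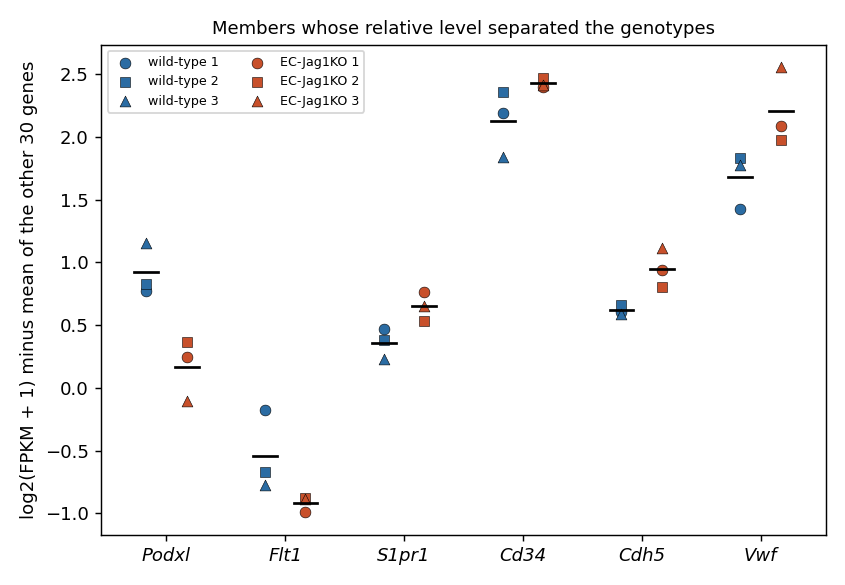
Relative level, log2(FPKM + 1) minus the mean of the other 30 tested members in the same library, for the 6 members whose groups did not overlap on this scale. Bars are group means of 3 libraries. Podxl and Flt1 lie lower in EC-Jag1KO (orange) and the other four higher, with Podxl differing by -0.75.

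Other endothelial genes, outside the 32, were counted in the same way. Of 45 tested genes in that list 30 lay higher and 15 lower in EC-Jag1KO, 0 passed limma's adjusted threshold (3 at an unadjusted p under 0.05, against 7.71% of all genes), and the median log2 fold change was 0.070. That median was -0.026 without wild-type replicate 1, with 21 higher and 24 lower, and -0.058 without wild-type replicate 2, with 18 higher and 27 lower. Groups did not overlap for 4 genes higher and 1 lower, against 13.6% of all genes. The 2 of smallest p were Ctla2a and Procr. Ctla2a, a cysteine protease inhibitor gene with a near copy beside it, averaged 4.23 ± 0.67 FPKM in wild-type against 7.64 ± 0.79 FPKM in EC-Jag1KO libraries (limma adjusted p = 0.284). Procr, the endothelial protein C receptor, stood at 12.2, 15.1 and 23.2 FPKM in wild-type and 39.2, 34.1 and 35.5 FPKM in EC-Jag1KO libraries. All EC-Jag1KO values of Procr lay above all wild-type values, with a log2 fold change of 1.11 and a limma adjusted p of 0.333.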

How the data were processed

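Total RNA came from silica spin columns, per the labels' protocols. Per the file headers, FPKM values of 35275 genes, with coordinates and lengths, were deposited by the authors as 1 table for all 6 libraries. The submitters' processing notes list STAR, HTSeq and edgeR without role or version, and mm10 as the build. Annotation release and strand setting were not found in the labels or headers. FPKM times gene length gave whole reads for 211650 of 211650 values (100%, within 0.05 of a read), and hence the depth of 19889910 to 25914325 reads. Intervals of absolute levels cover replicate spread, and those of relative levels rest mostly on a spread shared across genes.

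Values were analysed as log2(FPKM + 1), which understates changes of low genes. The 12165 genes whose mean reached 1 FPKM entered limma 3.58.1 (R 4.3.3), two-sided, with an intensity trend, genotype as the only term and Benjamini-Hochberg adjustment over all tested genes at 0.05. The test was checked on simulated data. Intervals are at 95%. Relative levels were fitted in the same way. The members, roles and lists were chosen with earlier results of these data known. All 188 listed genes were matched. All members are named; per-library values are given for members whose absolute or relative groups do not overlap and the 2 most abundant per role, and for others chosen after their values were seen. Lists covered the members' roles, other, arterial, capillary, venous and lymphatic endothelium, smooth muscle, pericytes, fibroblasts, macrophages, lymphocytes, adipocytes, mesothelium, Schwann cells and neurons, erythroid cells, platelets and striated muscle. Promoters were taken from RefSeq tables. No pair of libraries was one library entered more than once. Alternatives covered the pseudocount, filter, scaling, weights, voom, the replicate number as a block and each library left out. Plots used matplotlib 3.10.9 in Python 3.11.15.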

Additional observations from a re-analysis of the deposited data

How the results depend on the processing

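Of 31 members, 14 kept their direction over the 15 alternatives and 17 did not. The count of all genes past the adjusted threshold was 0 to 4 with each library left out, 2 without both libraries of high Xist and 1647 with library weights (13.5%), which called 10 members (Cdh5, Cd34, Ptprb, S1pr1, Vwf, Egfl7, Mmrn2, Sox18, Rasip1 and Plvap). The replicate number as a block gave 0 genes and 0 members. Same-numbered libraries deviated with correlations of 0.055, 0.051 and -0.050, and not every library correlated best with its own. With 3 libraries per group this cannot show whether same-numbered libraries share more than a number. Xist was high in both libraries numbered 3. Members with separate relative levels numbered 7 to 12 with each library left out, where 6.4% to 45.2% of all genes were separate, 15 (48.4%, against 63.4% of all genes) without the libraries of high Xist and 12 (38.7% against 11.1%) against the median of the other members; fewer libraries separate more readily by construction. The difference in endothelial level was -0.22 as a median over members. Against the median of the other members, all the separate members but Podxl lay higher in EC-Jag1KO, so their directions depend on this choice. Log2 fold changes that turned direction with a library left out ranged from -0.091 to 0.40 for Jag1, -0.35 to 0.24 for Arhgef15, -0.14 to 0.26 for Cd93, -0.62 to 0.021 for Cldn5, -0.17 to 0.21 for Clec14a, -0.099 to 0.19 for Ecscr, -0.18 to 0.12 for Esam, -0.088 to 0.23 for Fli1, -0.11 to 1.28 for Gpihbp1, -0.42 to 0.013 for Icam2, -0.11 to 0.16 for Myct1, -0.025 to 0.41 for Plvap, -0.068 to 0.32 for Rasip1, -0.27 to 0.44 for Robo4, -0.040 to 0.068 for Sox7 and -0.25 to 0.20 for Tie1. With library weights they turned to 0.044 for Cldn5, 0.13 for Esam, 0.23 for Icam2, 0.22 for Cd93, 0.15 for Tek, 0.23 for Tie1, 0.12 for Erg and 0.14 for Arhgef15. Without the libraries of high Xist they were 0.32 for Cldn5, 0.16 for Esam, 0.22 for Icam2, 0.19 for Cd93, -0.0071 for Myct1, 0.22 for Tie1 and 0.23 for Arhgef15. The adipocyte covariate, added after seeing the data, gave -0.077 for Ecscr, -0.12 for Robo4, -0.037 for Fli1 and -0.0019 for Rasip1. Quantile normalization gave -0.0049 for Fli1 and -0.024 for Sox7, and Cd93 was 0.00095 with a pseudocount of 0.1 and 0.0036 in voom. The causes of these changes were not tested. Counting limits the precision of Gpihbp1, Kdr, Robo4 and Aplnr in wild-type replicate 2, on 12, 53, 60 and 13 reads.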

Other observations

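Endothelial subtypes and other cell types, which the account of the 32 genes used only in part, are given here as counts of tested genes that lay higher or lower in EC-Jag1KO; 0 genes of any list passed limma's adjusted threshold. Of 18 arterial genes 5 lay higher and 13 lower, with a median log2 fold change of -0.16 (-0.056 without wild-type replicate 3), and 4, all lower, had groups that did not overlap (13.6% of all tested genes had such groups). Of 14 capillary genes 12 lay higher and 2 lower, with a median of 0.41, but without wild-type replicate 2 there were 5 higher and 9 lower, with a median of -0.15. Of 5 tested lymphatic endothelial genes 4 lay higher and 1 lower (median 0.22), and without that library 1 lay higher and 4 lower (-0.18). Of 7 tested venous genes 4 lay higher and 3 lower (median 0.058), and the median was -0.0051, -0.13 and -0.011 without wild-type replicates 1 and 2 and EC-Jag1KO replicate 2.

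Of 9 tested adipocyte markers 9 lay higher (median 0.63), and without wild-type replicate 2 there were 2 higher and 7 lower (-0.11). Of 10 fibroblast markers 7 lay higher (0.21) and of 10 macrophage markers 8 (0.18), the latter with a median of 0.054 without EC-Jag1KO replicate 2. Of 10 smooth muscle markers 6 lay lower (-0.0996; -0.024 without wild-type replicate 1), and of 6 tested pericyte markers 4 (-0.13; 0.016 without wild-type replicate 2). All 5 tested erythroid markers lay lower (median -1.39; -0.79 without EC-Jag1KO replicate 1), with sums of 741 to 1519 FPKM in wild-type and 190 to 919 FPKM in EC-Jag1KO libraries. Of 4 tested Schwann cell and neural genes 3 lay higher (0.14; 0.022 without wild-type replicate 2), and of 6 striated muscle genes 4 (0.17; -0.066 without EC-Jag1KO replicate 2). Of 3 platelet genes 2 lay lower (-0.0061), with medians of -0.11 to 0.094 over the fits with each library left out. Leaving out libraries for these lists was chosen after the data were seen. Lymphocyte and mesothelial markers were too low to test, with sums of 0.810 to 4.03 FPKM and 0.769 to 3.02 FPKM.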
